A study of Mus musculus with 14 samples.

Results

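The genes described here are 32 genes of fatty acid and cholesterol synthesis, followed through thymus RNA-seq of mice that carry an Lmo2 transgene and of wild-type (WT) mice. The members were the rows of the raw count table whose gene name was one of a list of 32 names: 4 genes of fatty acid synthesis, 7 desaturases and elongases, 5 genes of the SREBP control system, 6 enzymes of the mevalonate and isoprenoid steps, 9 enzymes from squalene to sterols, and 1 sterol carrier. All 32 were among the 46946 genes listed, and all 32 were among the 17087 that passed the filter on low counts. The list holds names alone, and it was drawn up with earlier results of these data known.

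Lmo2 is a transcriptional co-factor of early blood cells and a known oncogene of T-cell acute lymphoblastic leukaemia. The study asked whether Lmo2 switched on in different blood cells leads to T-cell leukaemia, and thymus was sequenced in 14 libraries. The Rosa26-Lmo2+Sca1-Cre group (n = 3, aged 9 months) carries Lmo2 at the Rosa26 locus behind a stop cassette that Cre, driven by the stem and progenitor cell promoter Sca1, removes, so that all descendants keep it on. In Sca1-Lmo2 mice (n = 4, with 2 aged 7 months and 2 aged 8 months) the Sca1 promoter drives Lmo2 itself, and expression is aimed at the stem and progenitor cells alone. The Rosa26-Lmo2+Mb1-Cre group (n = 2) was 20 months of age, and its Cre acts from the pro-B cell stage. The 1 mouse of the Rosa26-Lmo2+Aid-Cre group was 22 months of age, with Cre active in germinal centre B cells and, per the methods, an injection of sheep red blood cells to bring these about. WT mice (n = 4) were 4 months old. The paper reports T-cell leukaemia in mice of each model. The labels describe frozen thymus, while the methods speak of blast cells from the models and of healthy thymus as control. All 14 shared the mixed strain background C57BL/6;CBA. Every model was older than WT, so genotype, age and leukaemia cannot be told apart. The labels name each library as a separate sample without stating separate animals, so p-values measure the spread between these samples.

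Fatty acid synthesis builds long-chain acyl groups from acetyl-CoA in the cytosol, and desaturases and elongases then shape the chains that go into membranes. Cholesterol synthesis starts from the same acetyl-CoA, runs through mevalonate to farnesyl diphosphate and squalene, and ends with a series of sterol-modifying steps. SREBP transcription factors govern both routes. They are held in the endoplasmic reticulum with SCAP and INSIG proteins while sterols are plentiful, and are cut and released to the nucleus when sterols are low. Dividing lymphocytes and thymocytes are known to draw on both routes for new membrane.

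Promoter windows of RefSeq (build GRCm38.p6), 300 bases each from 250 before to 50 after a gene's start, were found for 25 of the 32 members, 34 windows in all. Not in the table were Scd1, Scd2, Fads1, Fdps, Fdft1, Sqle and Stard4. Each window was read on both strands for the sterol response element TCACNCCAC, the CCAAT box (CCAAT), the GC box (GGGCGG) and the E-box CACGTG. Motifs may overlap one another. The sterol response element stood in 1 of the 34 member windows (2.94%), that of Hmgcs1, and in 1.24% of all 32851 windows. The CCAAT box stood in 22 member windows (64.7%) of 21 genes, against 37.4% of all windows. The GC box stood in 25 member windows (73.5%) of 20 genes, against 35.7%, and the E-box in 7 (20.6%) of 6 genes, against 7.15%. These are letter matches, not sites. Only exact matches were counted, so variants of the sterol response element in other windows, or elements of members without a window, would be missed. A set of 3 windows is shown. They are Mvk, called in all comparisons with WT below and with 5 CCAAT boxes, Fasn, the fatty acid synthase gene, and Hmgcs1, the only window searched with an exact match to TCACNCCAC. Capitals mark CCAAT, its reverse complement ATTGG and the sterol response element. They lie at chr5:114444019-114444318 (plus strand), chr11:120824498-120824797 (minus strand) and chr13:119690101-119690400 (plus strand).
Mvk: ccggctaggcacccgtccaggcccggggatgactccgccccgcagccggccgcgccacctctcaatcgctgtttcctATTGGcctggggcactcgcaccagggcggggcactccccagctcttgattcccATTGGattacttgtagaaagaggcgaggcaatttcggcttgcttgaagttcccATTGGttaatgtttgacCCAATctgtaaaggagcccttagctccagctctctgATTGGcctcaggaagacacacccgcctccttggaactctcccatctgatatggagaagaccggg
Fasn: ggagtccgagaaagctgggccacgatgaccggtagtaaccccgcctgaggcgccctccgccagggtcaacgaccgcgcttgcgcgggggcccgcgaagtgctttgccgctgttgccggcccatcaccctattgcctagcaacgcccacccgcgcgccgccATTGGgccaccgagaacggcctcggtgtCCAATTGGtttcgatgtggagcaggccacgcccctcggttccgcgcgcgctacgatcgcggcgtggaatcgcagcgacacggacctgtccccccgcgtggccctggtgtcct
Hmgcs1: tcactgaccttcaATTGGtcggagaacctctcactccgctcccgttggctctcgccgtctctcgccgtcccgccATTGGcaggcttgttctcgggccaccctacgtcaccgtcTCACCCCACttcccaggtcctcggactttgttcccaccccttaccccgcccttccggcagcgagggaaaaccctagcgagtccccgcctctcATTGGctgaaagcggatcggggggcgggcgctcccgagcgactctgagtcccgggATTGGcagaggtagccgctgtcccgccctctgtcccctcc
The element of Hmgcs1 reads TCACCCCAC and lies from 137 to 129 bases before the start. In Fasn the last CCAAT box and the last ATTGG share letters, so its 3 boxes stand at 2 places.

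Counts per library summed to between 42985130 and 47667663. Levels are given as TMM-scaled CPM, that is, counts scaled to a common library size, itself corrected for differences in composition. Lmo2 itself ranged from 5.82 to 10.1 CPM over Rosa26-Lmo2+Sca1-Cre libraries, from 10.2 to 17.5 over Sca1-Lmo2 libraries and from 3.95 to 6.97 over Rosa26-Lmo2+Mb1-Cre libraries, and the Rosa26-Lmo2+Aid-Cre library had 22.1 CPM. In WT it ranged from 1.62 to 4.42 CPM. By PCR and Western blot, the paper reports that sorted Sca1-Lmo2 leukaemic cells had lost Lmo2, while Rosa26-Lmo2 tumours kept it. It also describes mosaic Lmo2 expression in non-tumour T cells of Sca1-Lmo2 mice. Which cells gave the Lmo2 counts here was not tested. The summed level of 10 T-lineage markers was 3260 to 6820 CPM in Rosa26-Lmo2+Sca1-Cre and 4350 to 6080 in Sca1-Lmo2. It was 4820 to 5260 in Rosa26-Lmo2+Mb1-Cre, 4600 in Rosa26-Lmo2+Aid-Cre and 9150 to 10600 CPM in WT, with no marker at 0 in a group. Against WT, 5, 3 and 2 of the 10 were lower and 0 higher in the 3 models with replicates, by the test described below. A large part of the WT sum came from Cd8a, Cd8b1 and Rag1, which averaged 1510, 1400 and 1440 CPM there. The sum thus leans on these genes. Rosa26-Lmo2+Sca1-Cre replicate 3 stood apart. Over 157 long genes that were silent in WT it had 0.7971 counts per kb, against 0.01655 to 0.08955 in the other 13 libraries. If that rate is background and counts cover whole gene spans with introns, it would make up 0.194% (Fdps) to 15.2% (Elovl6) of the members' counts there. For Acaca the share would be 10.6%. Whether introns were counted is not given, and the rate is pooled over the 157 genes without a look at their spread. Sca1-Lmo2 replicates 1 and 3 both took most of their T-cell receptor V-beta counts from the Trbv5 segment (82.3% and 86.3%, against 5.59 to 6.32% in WT) and differed from each other less than other pairs of the group did (SD of the log2 difference 0.816, against 1.19 to 1.46). They were kept as separate libraries. In bulk tissue, fewer cells of a type and less RNA per cell cannot be told apart.

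**Figure D1:**
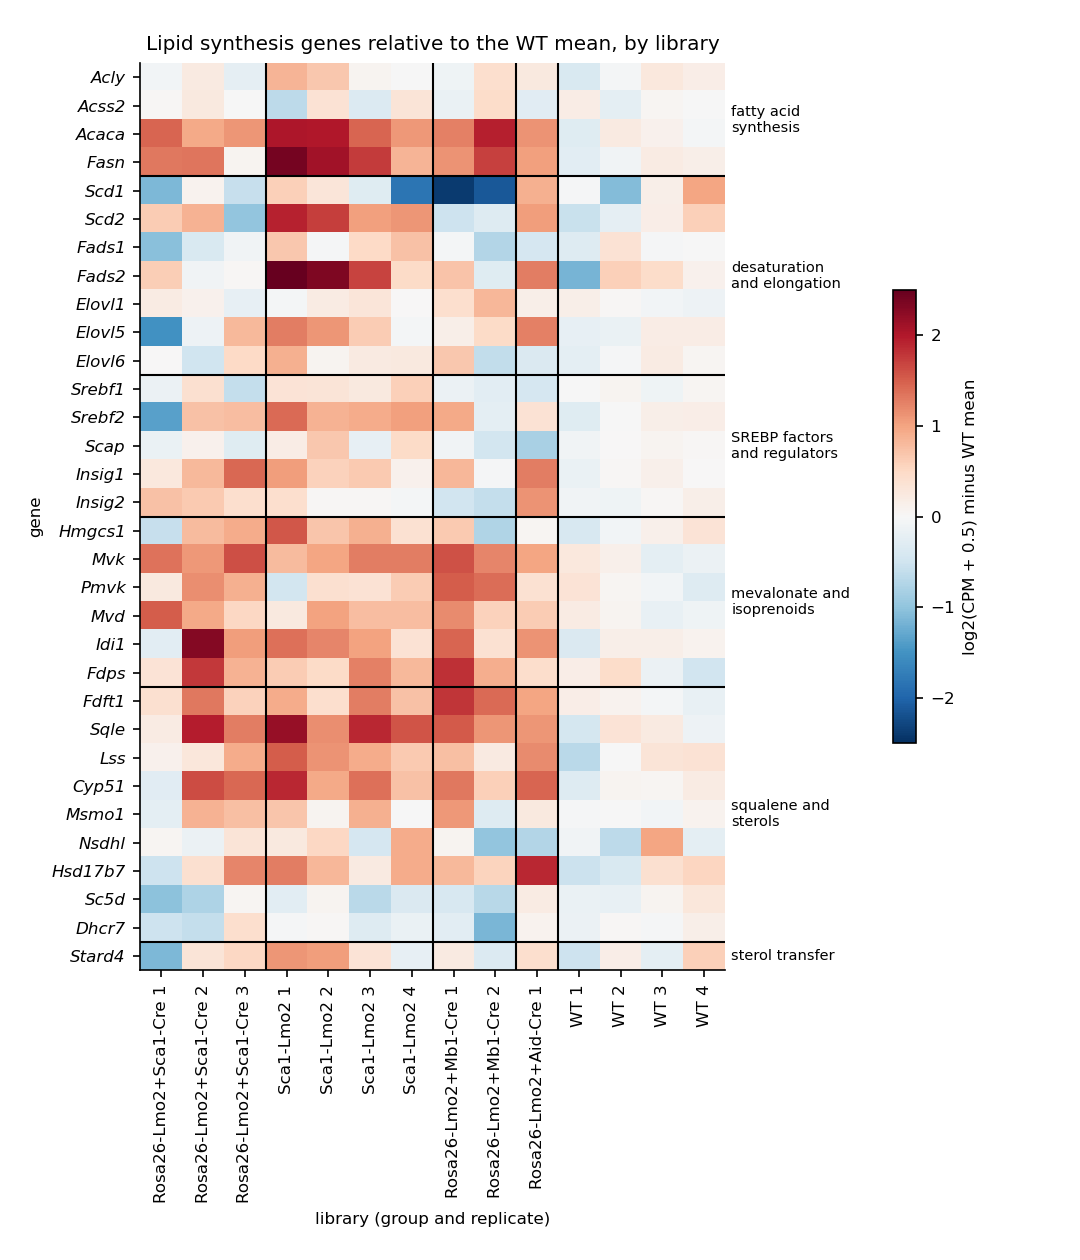
Level of each of the 32 genes (rows, by role) in each of the 14 libraries (columns, by group), as log2(CPM + 0.5) minus the WT mean, with red above and blue below that mean. Rows of Acaca, Mvk, Sqle and Fdft1 are above the WT mean in every library of the 3 replicated models, and Scd1 is lowest in the 2 Rosa26-Lmo2+Mb1-Cre libraries.

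Against WT, 9 of the 32 genes were higher and 0 were lower in Rosa26-Lmo2+Sca1-Cre thymus (adjusted p under 0.05, edgeR quasi-likelihood test, Benjamini-Hochberg over all 17087 genes), which is 28.1% of the members. Over all genes tested, 26.9% were called in this comparison, 16.5% higher and 10.4% lower. In Sca1-Lmo2 thymus again 9 were higher and 0 lower (28.1%), while 22.3% of all genes were called, 12.1% higher and 10.2% lower. In Rosa26-Lmo2+Mb1-Cre thymus 9 were higher (28.1%) and 2 lower (6.25%), while 35.1% of all genes were called, 19.7% higher and 15.4% lower. In this fit the members' share of higher calls was above that of all genes in each comparison, and their share of lower calls below it. Taken in either direction, the shares of members and of all genes were close in Rosa26-Lmo2+Sca1-Cre (28.1% and 26.9%) and Rosa26-Lmo2+Mb1-Cre (34.4% and 35.1%). Higher shares were also close in some alternatives. By limma-voom they were 12.5% and 11.7% for Rosa26-Lmo2+Sca1-Cre. For Rosa26-Lmo2+Mb1-Cre they were 12.5% and 10.8% with libraries scaled by their totals, and 12.5% and 10.5% with a term for replicate number. For Rosa26-Lmo2+Sca1-Cre the order of the higher shares turned round in 2 of the alternatives: with libraries scaled by their totals alone 3.12% of the members and 9.28% of all genes were higher, and without Rosa26-Lmo2+Sca1-Cre replicate 2 the shares were 9.38% and 10.7%. For the 2 counts of 0 lower, no member was lower at an unadjusted p under 0.05, by DESeq2 or by limma-voom either. The 3 comparisons share the 4 WT libraries.

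The median log2 fold change of the 32 genes was 0.38 for Rosa26-Lmo2+Sca1-Cre, 0.69 for Sca1-Lmo2 and 0.39 for Rosa26-Lmo2+Mb1-Cre, beside medians over all genes of 0.059, 0.045 and -0.0051. With libraries scaled by their totals alone the median of all genes moved to -0.336, -0.143 and -0.459, and that of the members to 0.04, 0.50 and -0.07, so that its sign turned in Rosa26-Lmo2+Mb1-Cre while it stayed above the median of all genes. The same scaling gave 1, 6 and 4 members higher and 0, 0 and 3 lower, and put 34.9%, 44.0% and 33.9% of all calls on the higher side, against 61.5%, 54.3% and 56.0% with TMM. Single libraries moved the counts too. In Rosa26-Lmo2+Sca1-Cre 3 members were higher without its replicate 2 or without WT replicate 3, 4 without WT replicate 4 and 5 without WT replicate 2. Leaving out its replicate 3, the library with the high pooled rate over long silent genes, left 8, with Sc5d called lower. In Sca1-Lmo2 5 were higher without its replicate 1 and 6 with replicates 1 and 3 merged. In Rosa26-Lmo2+Mb1-Cre 5 were higher without its replicate 2.

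A set of 4 genes was higher in all 3 comparisons: Acaca, Mvk, Sqle and Fdft1. Fasn, Mvd and Fdps were higher in 2 of them and 9 genes in 1, while Scd1 and Insig2 were lower in 1. In total 17 members were called somewhere and 15 nowhere. Shares of all genes called in several comparisons, or in any, were not computed, and the 3 comparisons share the WT libraries. These joint counts thus have no general rate beside them. Calls that held whichever single library was left out were those of Acaca and Mvk in Rosa26-Lmo2+Sca1-Cre, of Acaca, Fasn, Mvk and Sqle in Sca1-Lmo2, and of Acaca, Fdft1, Mvk and Pmvk in Rosa26-Lmo2+Mb1-Cre.

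**Figure D2:**
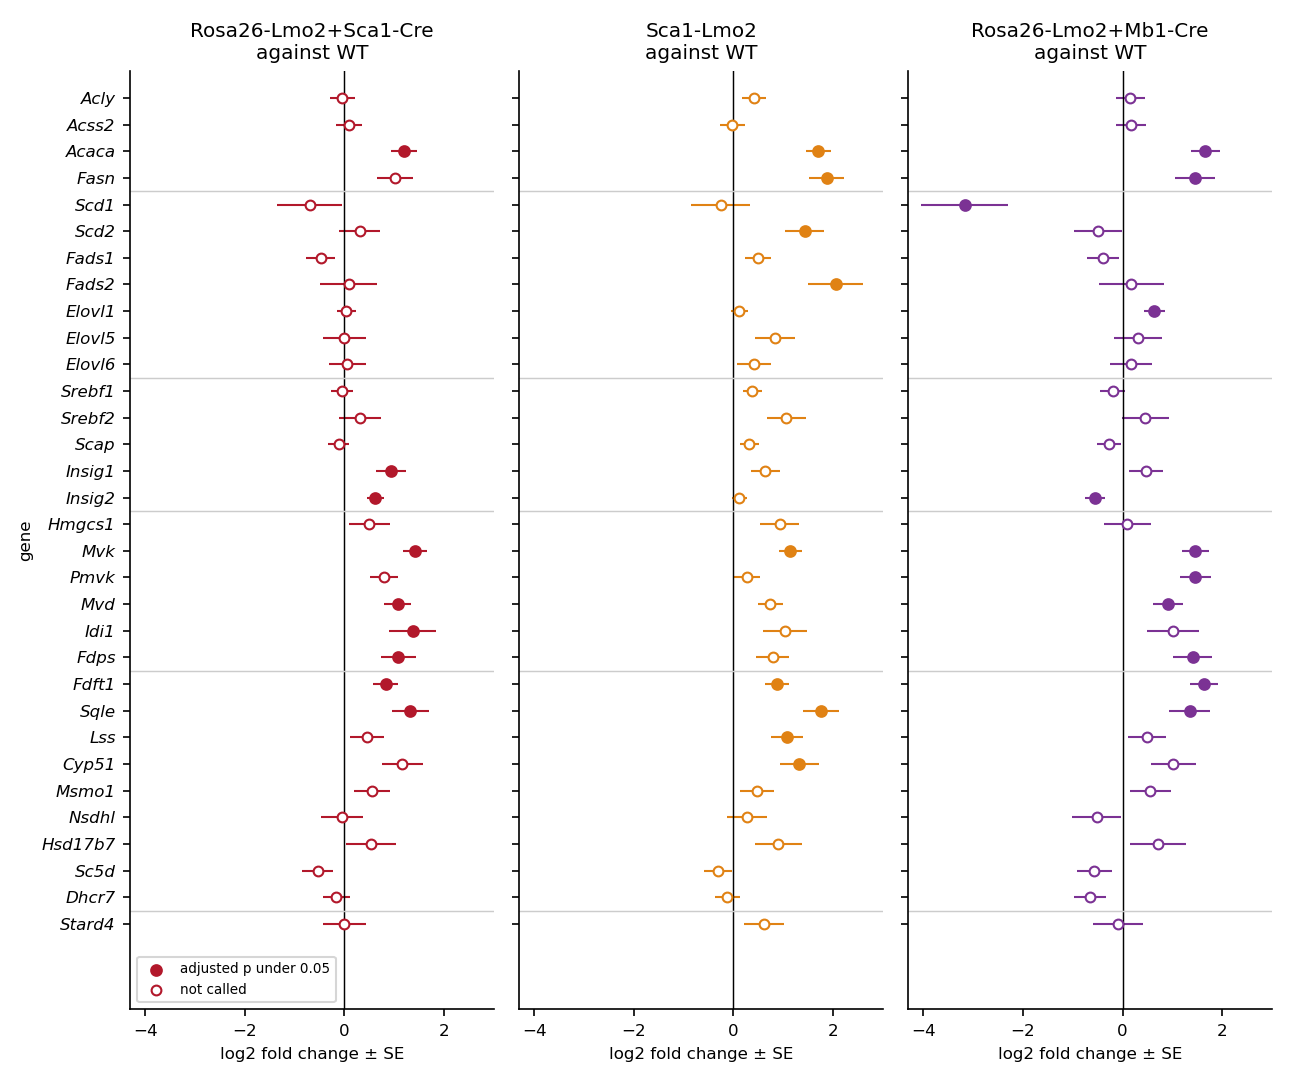
Log2 fold change against WT (x axis, bars ± SE) of the 32 genes (y axis, by role) in the 3 models with replicates, with filled points for adjusted p under 0.05 in edgeR. The 9 higher calls of Sca1-Lmo2 spread over both routes, and Scd1 at -3.17 in Rosa26-Lmo2+Mb1-Cre is the farthest point below 0.

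Of the 4 genes of fatty acid synthesis, the carboxylase and the synthase changed and the 2 enzymes that supply acetyl-CoA did not pass the test. Acaca (chr11:84129672-84401651) encodes acetyl-CoA carboxylase 1, which makes malonyl-CoA and commits carbon to the route. It stood at 52.0, 36.5 and 40.7 CPM in Rosa26-Lmo2+Sca1-Cre, 76.9, 75.9, 51.9 and 39.8 in Sca1-Lmo2 and 45.1 and 73.5 in Rosa26-Lmo2+Mb1-Cre, against 15.1, 21.8, 20.2 and 18.1 in WT. All 9 libraries of the models lay above all 4 of WT. The log2 fold changes were 1.20 (SE 0.265, adjusted p = 0.0109), 1.70 (SE 0.253, adjusted p = 0.00168) and 1.66 (SE 0.29, adjusted p = 0.00251). Under scaling by totals the first of these fell short (adjusted p = 0.063). Fasn, the fatty acid synthase, had 162, 163 and 67.1 CPM in Rosa26-Lmo2+Sca1-Cre, 338, 278, 216 and 117 in Sca1-Lmo2 and 141 and 212 in Rosa26-Lmo2+Mb1-Cre, against 53.5, 60.6, 74.1 and 71.0 in WT. Rosa26-Lmo2+Sca1-Cre replicate 3 lay within the WT range and the other 8 model libraries above it. Fasn rose in Sca1-Lmo2 (1.87, SE 0.35, adjusted p = 0.00437) and Rosa26-Lmo2+Mb1-Cre (1.45, SE 0.4, adjusted p = 0.0166), and its log2 fold change of 1.01 in Rosa26-Lmo2+Sca1-Cre had an adjusted p of 0.0559. Without Rosa26-Lmo2+Mb1-Cre replicate 2 the second call was lost (adjusted p = 0.162).

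The other 2 genes of the step make acetyl-CoA: Acly from citrate and Acss2 from acetate. Acly averaged 128 ± 20.2 CPM in Rosa26-Lmo2+Sca1-Cre thymus, 176 ± 51.4 in Sca1-Lmo2 and 148 ± 37.5 in Rosa26-Lmo2+Mb1-Cre, against 132 ± 24.9 in WT (SD, n = 3, 4, 2 and 4). Acss2 averaged 33.2 ± 3.19, 30.8 ± 10.4 and 35.3 ± 10.7 CPM in the same models, against 31.3 ± 3.78 in WT. Adjusted p-values ran from 0.226 to 0.957 and the groups overlapped in each comparison. Of the span of Acss2, 33.3% is shared with Gss, which had 0.669 times its counts.

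Among the 7 desaturases and elongases, 2 were higher in Sca1-Lmo2 and 1 was higher and 1 lower in Rosa26-Lmo2+Mb1-Cre. In Rosa26-Lmo2+Sca1-Cre 0 were called by edgeR, DESeq2 or limma-voom, and 0 had an unadjusted p under 0.05. Scd2, a stearoyl-CoA desaturase that puts the first double bond into saturated chains, stood at 619, 539, 332 and 353 CPM in Sca1-Lmo2, against 111, 140, 183 and 248 in WT. Every Sca1-Lmo2 library lay above every WT library, and Scd2 rose by 1.43 on the log2 scale (SE 0.388, adjusted p = 0.0213). It missed the threshold without Sca1-Lmo2 replicate 1 (adjusted p = 0.0603) and without WT replicate 1 or 2 (0.0628 and 0.0601). It had 255, 299 and 81.7 CPM in Rosa26-Lmo2+Sca1-Cre and 113 and 130 in Rosa26-Lmo2+Mb1-Cre, both overlapping WT. Scd1, its relative best known from liver and fat, was low throughout, at 0.508 and 0.718 CPM in Rosa26-Lmo2+Mb1-Cre, against 4.69, 2.00, 5.41 and 10 in WT. Both Rosa26-Lmo2+Mb1-Cre libraries lay below WT, and Scd1 fell by 3.17 (SE 0.88, adjusted p = 0.0168). That call no longer passed on leaving out either of the 2 libraries (log2 fold changes -2.94 and -3.44, adjusted p = 0.0985 and 0.103) and by limma-voom (-2.97, adjusted p = 0.0772). In Rosa26-Lmo2+Sca1-Cre it stood at 1.94, 5.17 and 3.09 CPM and in Sca1-Lmo2 at 7.57, 6.04, 3.79 and 1.01, both overlapping WT.

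Fads2, the delta-6 desaturase of polyunsaturated fatty acids, stood at 33.3, 22.8, 14.5 and 5.96 CPM in Sca1-Lmo2, against 1.59, 6.52, 5.90 and 4.48 in WT. Replicate 4 fell within the WT range and the other 3 lay above it. Fads2 rose by 2.05 (SE 0.549, adjusted p = 0.0205), and had 1.64 without Sca1-Lmo2 replicate 1 (adjusted p = 0.0649) and 2.04 without WT replicate 4 (adjusted p = 0.0574), neither past the threshold. Fads2 had 6.65, 3.86 and 4.23 CPM in Rosa26-Lmo2+Sca1-Cre and 7.14 and 3.29 in Rosa26-Lmo2+Mb1-Cre, both overlapping WT. Elovl1, an elongase of saturated and monounsaturated very long chains, had 33.2 and 44.5 CPM in Rosa26-Lmo2+Mb1-Cre, against 27.6, 25.5, 23.7 and 22.7 in WT, with no overlap, and rose by 0.64 (SE 0.203, adjusted p = 0.0292), which missed the threshold on leaving out Rosa26-Lmo2+Mb1-Cre replicate 2 (adjusted p = 0.274) and without WT replicate 2, 3 or 4 (0.0524 to 0.0713). It shares 53 bases with Cdc20, a gene of the cell cycle with 3.33 times its counts that itself had a log2 fold change of 1.20 there (adjusted p = 0.0149). The library kit does not mark strand, so reads in such shared stretches cannot be assigned. In the other models Elovl1 ranged from 21.4 to 28.8 CPM in Rosa26-Lmo2+Sca1-Cre and from 23.9 to 30.7 in Sca1-Lmo2, overlapping WT.

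Fads1, Elovl5 and Elovl6 passed the test nowhere. Fads1, the delta-5 desaturase, averaged 20.6 ± 6.65 CPM in Rosa26-Lmo2+Sca1-Cre thymus, 40.3 ± 8.84 in Sca1-Lmo2 and 22.0 ± 7.34 in Rosa26-Lmo2+Mb1-Cre, against 28.7 ± 5.85 in WT. Elovl5, an elongase of polyunsaturated chains, averaged 64.8 ± 45.6, 115 ± 42.4 and 80.7 ± 13.8 CPM in the same models, against 65.0 ± 9.76 in WT, and its 3 Rosa26-Lmo2+Sca1-Cre libraries ran from 22.3 to 113 CPM. Elovl6, which extends palmitate, averaged 8.05 ± 2.91, 10.3 ± 2.99 and 8.68 ± 5.47 CPM, against 7.74 ± 1.04 in WT. The lowest adjusted p of the 9 comparisons was 0.162, for Elovl5 in Sca1-Lmo2.

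**Figure D3:**
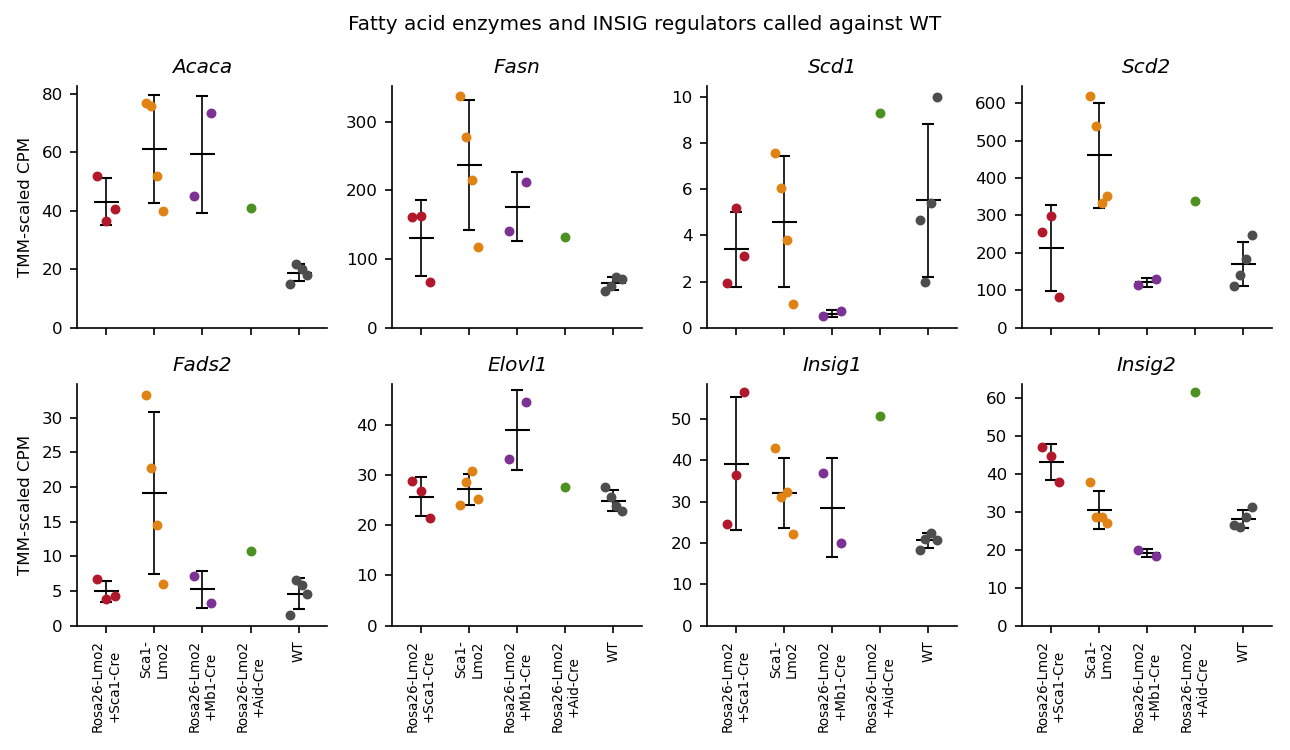
TMM-scaled CPM (y axis, linear, from 0) of the 8 genes of fatty acid metabolism and of INSIG control that were called in any comparison with WT, by group (x axis), with a point per library and bars for mean ± SD where n is 2 or more. Acaca lies above WT in all 9 libraries of the replicated models, and Scd1 lies below 1 CPM in Rosa26-Lmo2+Mb1-Cre alone.

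In the SREBP control system the transcription factors and SCAP did not pass the test and the 2 INSIG genes did. Insig1, whose product retains SCAP and which is itself an SREBP target, had 24.6, 36.4 and 56.5 CPM in Rosa26-Lmo2+Sca1-Cre, against 18.2, 20.9, 22.5 and 20.8 in WT. The 3 lay above all WT libraries and Insig1 rose by 0.93 (SE 0.304, adjusted p = 0.0413), which missed the threshold on leaving out any 1 of the 4 WT libraries or of Rosa26-Lmo2+Sca1-Cre replicates 2 and 3 (adjusted p = 0.0733 to 0.165). It had 42.9, 31.0, 32.4 and 22.1 CPM in Sca1-Lmo2 and 37.0 and 20.0 in Rosa26-Lmo2+Mb1-Cre, and was called in neither. Insig2, the second retention protein, had 47.0, 44.6 and 37.8 CPM in Rosa26-Lmo2+Sca1-Cre, 37.8, 28.5, 28.6 and 27.0 in Sca1-Lmo2 and 19.9 and 18.3 in Rosa26-Lmo2+Mb1-Cre, against 26.5, 26, 28.7 and 31.2 in WT. All Rosa26-Lmo2+Sca1-Cre libraries were thus above WT, both Rosa26-Lmo2+Mb1-Cre libraries below it, and Sca1-Lmo2 overlapped it. Insig2 rose by 0.62 in Rosa26-Lmo2+Sca1-Cre (SE 0.17, adjusted p = 0.0226) and fell by 0.56 in Rosa26-Lmo2+Mb1-Cre (SE 0.199, adjusted p = 0.0463). The rise no longer passed on leaving out WT replicate 2 or 3 and without Rosa26-Lmo2+Sca1-Cre replicate 1 or 2 (adjusted p = 0.0555 to 0.0685). The fall missed the threshold whichever 1 of the 6 libraries was left out, with adjusted p from 0.0595 to 0.218.

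Srebf1, the factor most tied to fatty acid genes, averaged 101 ± 36.2 CPM in Rosa26-Lmo2+Sca1-Cre thymus, 137 ± 14.9 in Sca1-Lmo2 and 91.4 ± 5.53 in Rosa26-Lmo2+Mb1-Cre, against 105 ± 5.42 in WT. It shares 109 bases with Rai1, which had 0.874 times its counts. Srebf2, the factor most tied to cholesterol genes, had 273, 188, 196 and 208 CPM in Sca1-Lmo2, all above the 82.7, 101, 114 and 115 of WT, with a difference of 1.06 (SE 0.397) that missed the threshold in edgeR (adjusted p = 0.0731) and was called by DESeq2. It had 39.7, 171 and 175 CPM in Rosa26-Lmo2+Sca1-Cre and 198 and 86.0 in Rosa26-Lmo2+Mb1-Cre, so 1 library of each lay within or below the WT range. Scap, the escort of SREBP, averaged 53.6 ± 8.23, 72.4 ± 18.6 and 48.2 ± 9.00 CPM in the 3 models, against 57.9 ± 2.78 in WT. Its lowest adjusted p was 0.254.

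The 6 enzymes of the mevalonate and isoprenoid steps all had positive log2 fold changes in each of the 3 comparisons. Their medians were 1.08 in Rosa26-Lmo2+Sca1-Cre thymus, 0.86 in Sca1-Lmo2 and 1.21 in Rosa26-Lmo2+Mb1-Cre, with 4, 1 and 4 of the 6 called. Mvk (chr5:114444269-114460591) encodes mevalonate kinase, the first of 2 kinases that act on mevalonate. It stood at 17.6, 14.5 and 21.1 CPM in Rosa26-Lmo2+Sca1-Cre, 11.6, 13.4, 16.6 and 16.5 in Sca1-Lmo2 and 20.6 and 15.8 in Rosa26-Lmo2+Mb1-Cre, against 7.91, 7.23, 5.46 and 5.82 in WT. No model library overlapped WT. The log2 fold changes were 1.42 (SE 0.242, adjusted p = 0.00465), 1.14 (SE 0.228, adjusted p = 0.00595) and 1.46 (SE 0.266, adjusted p = 0.00295), and each call held under every alternative tried. Pmvk, the second kinase, had 46.2 and 42.5 CPM in Rosa26-Lmo2+Mb1-Cre, against 20.4, 16.4, 15.2 and 12.6 in WT, without overlap, and rose by 1.46 (SE 0.314, adjusted p = 0.00592). Pmvk stood at 18.9, 36.0 and 29.8 CPM in Rosa26-Lmo2+Sca1-Cre (0.80, adjusted p = 0.0544) and in Sca1-Lmo2 at 11.5, 21.3, 20.5 and 25.0 CPM, both overlapping WT.

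Mvd, which decarboxylates mevalonate diphosphate to isopentenyl diphosphate, had 38.2, 25.9 and 19 CPM in Rosa26-Lmo2+Sca1-Cre, 15.6, 26.7, 22.6 and 22.8 in Sca1-Lmo2 and 30.2 and 19.7 in Rosa26-Lmo2+Mb1-Cre, against 15.2, 13.8, 11.5 and 12.2 in WT. All 9 model libraries were above WT. It rose in Rosa26-Lmo2+Sca1-Cre (1.07, SE 0.27, adjusted p = 0.0162) and Rosa26-Lmo2+Mb1-Cre (0.92, SE 0.3, adjusted p = 0.0328) and missed the threshold in Sca1-Lmo2 (0.74, adjusted p = 0.0547). The first call no longer passed on leaving out Rosa26-Lmo2+Sca1-Cre replicate 1 (adjusted p = 0.068), the second without either Rosa26-Lmo2+Mb1-Cre library or WT replicate 2, 3 or 4 (0.0553 to 0.27). Its whole span lies inside Gm20388, a gene model with 288 times its counts, so its values are uncertain. Idi1, the isomerase of isopentenyl diphosphate, had 20.7, 123 and 51.5 CPM in Rosa26-Lmo2+Sca1-Cre, against 19.1, 27.4, 27.5 and 26.4 in WT. Replicate 1 fell within the WT range and replicate 2 was far above it. Idi1 rose by 1.37 (SE 0.471, adjusted p = 0.0484), which no longer passed on leaving out Rosa26-Lmo2+Sca1-Cre replicate 2 (adjusted p = 0.361) or 3 (0.0507) or any 1 of the WT libraries (0.0815 to 0.1). It had 65.5, 58.2, 50.7 and 32 CPM in Sca1-Lmo2 and 68.8 and 32.7 in Rosa26-Lmo2+Mb1-Cre, all above WT but called in neither.

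Fdps, the farnesyl diphosphate synthase at the branch to sterols and prenylated proteins, had 47.4, 129 and 68.6 CPM in Rosa26-Lmo2+Sca1-Cre, 58.8, 52.5, 89.9 and 66.0 in Sca1-Lmo2 and 134 and 70.5 in Rosa26-Lmo2+Mb1-Cre, against 42.2, 51.9, 33.6 and 26.8 in WT. One library, Rosa26-Lmo2+Sca1-Cre replicate 1, lay within the WT range. Fdps rose in Rosa26-Lmo2+Sca1-Cre (1.08, SE 0.353, adjusted p = 0.0407) and Rosa26-Lmo2+Mb1-Cre (1.41, SE 0.388, adjusted p = 0.0165). The first call no longer passed on leaving out Rosa26-Lmo2+Sca1-Cre replicate 2 (adjusted p = 0.221) or WT replicate 1, 3 or 4 (0.0613 to 0.111), the second without Rosa26-Lmo2+Mb1-Cre replicate 1 (0.192). It shares 89.7% of its span with the gene model Gm43738, whose counts were 1.19 times its own and whose log2 fold changes were 0.996 and 1.23 in those comparisons (adjusted p = 0.0386 and 0.0191). Hmgcs1 makes HMG-CoA, and its promoter window holds the exact letter match shown above. It had 76.5, 42.0, 48.2 and 33.8 CPM in Sca1-Lmo2, all above the 19.5, 24.8, 28.3 and 32.7 of WT. The difference was 0.93 on the log2 scale (SE 0.39, adjusted p = 0.107). It averaged 37.3 ± 17.7 CPM in Rosa26-Lmo2+Sca1-Cre and 28.2 ± 18.4 in Rosa26-Lmo2+Mb1-Cre, and was called nowhere.

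Of the 9 enzymes from squalene to sterols, 2 were higher in Rosa26-Lmo2+Sca1-Cre thymus, 4 in Sca1-Lmo2 and 2 in Rosa26-Lmo2+Mb1-Cre, and the calls fell on the first 4 steps. Median log2 fold changes of the 9 were 0.54, 0.88 and 0.56. Fdft1 (chr14:63145153-63177793), the squalene synthase, had 26.5, 50 and 29.9 CPM in Rosa26-Lmo2+Sca1-Cre, 38.1, 26.8, 48.6 and 33.5 in Sca1-Lmo2 and 70.0 and 54.0 in Rosa26-Lmo2+Mb1-Cre, against 22.2, 21.2, 19.1 and 17.3 in WT. All 9 model libraries lay above WT. The log2 fold changes were 0.83 (SE 0.255, adjusted p = 0.0329), 0.88 (SE 0.239, adjusted p = 0.0216) and 1.64 (SE 0.28, adjusted p = 0.0023). The first no longer passed on leaving out Rosa26-Lmo2+Sca1-Cre replicate 2 (adjusted p = 0.157) or WT replicate 2, 3 or 4 (0.0577 to 0.0906), the second without Sca1-Lmo2 replicate 1 or 3, likewise WT replicate 3 or 4 (0.0503 to 0.0683). One part of Fdft1, 767 bases, is shared with Ctsb, a lysosomal protease gene with 8.1 times its counts and a log2 fold change of 1.73 in Rosa26-Lmo2+Mb1-Cre (adjusted p = 0.00667). The part of that overlap in the values of Fdft1 was not tested.

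Sqle (chr15:59315077-59331192), the squalene epoxidase and a known control point of the sterol branch, had 13.7, 47.8 and 29.3 CPM in Rosa26-Lmo2+Sca1-Cre, 55.3, 27.2, 45.0 and 36.2 in Sca1-Lmo2 and 35.4 and 26.1 in Rosa26-Lmo2+Mb1-Cre, against 8.65, 15.1, 13.9 and 10.8 in WT. Rosa26-Lmo2+Sca1-Cre replicate 1 alone overlapped WT. The log2 fold changes were 1.32 (SE 0.374, adjusted p = 0.0245), 1.76 (SE 0.357, adjusted p = 0.00638) and 1.35 (SE 0.411, adjusted p = 0.025). The first no longer passed on leaving out Rosa26-Lmo2+Sca1-Cre replicate 2 (adjusted p = 0.122) or WT replicate 1, 3 or 4 (0.0516 to 0.0692), the last without Rosa26-Lmo2+Mb1-Cre replicate 1 (0.141) or 2 (0.0782) or WT replicate 1 or 4 (0.0551 and 0.0609). Lss, the cyclase that makes lanosterol, had 21.0, 15.9, 13.7 and 11.3 CPM in Sca1-Lmo2, all above the 4.19, 6.95, 8.92 and 9.08 of WT, and rose by 1.08 (SE 0.321, adjusted p = 0.031), which missed the threshold on leaving out Sca1-Lmo2 replicate 1 or 3, likewise WT replicate 1 or 2 (adjusted p = 0.0534 to 0.0915). It shares 44.1% of its span with 4930483K19Rik, which had 0.876 times its counts and a log2 fold change of 1.02 (adjusted p = 0.0252). Lss had 7.61, 8.58 and 13.7 CPM in Rosa26-Lmo2+Sca1-Cre and 12.2 and 8.29 in Rosa26-Lmo2+Mb1-Cre, both overlapping WT.

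Cyp51, the lanosterol 14-alpha-demethylase, had 46.3, 23.8, 32.3 and 20.6 CPM in Sca1-Lmo2, against 9.62, 12.8, 12.6 and 14.1 in WT, without overlap, and rose by 1.32 (SE 0.39, adjusted p = 0.0305), which missed the threshold on leaving out Sca1-Lmo2 replicate 1 or 3 or any 1 of the WT libraries (adjusted p = 0.0611 to 0.0922). It had 31.3 and 18.6 CPM in Rosa26-Lmo2+Mb1-Cre, also above WT, and 9.94, 38.9 and 33.7 in Rosa26-Lmo2+Sca1-Cre, where replicate 1 lay within WT and the log2 fold change of 1.16 missed the threshold (adjusted p = 0.0533). It shares 166 bases with Akap9, which had 1.66 times its counts and whose log2 fold changes were negative in all 3 comparisons and not called.

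**Figure D4:**
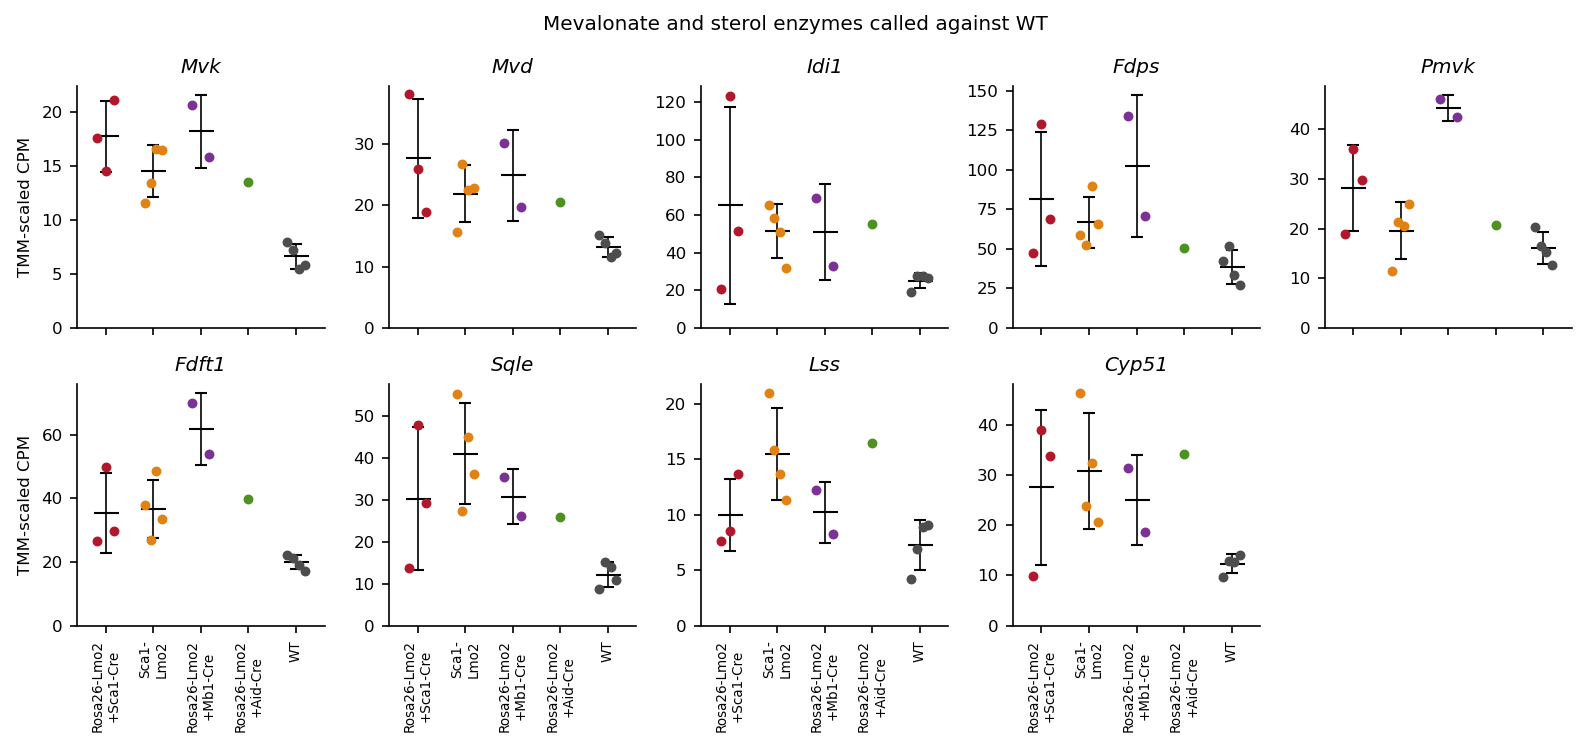
TMM-scaled CPM (y axis, linear, from 0) of the 9 mevalonate and sterol enzymes called in any comparison with WT, by group (x axis), with a point per library and bars for mean ± SD where n is 2 or more. Mvk, Mvd and Fdft1 lie above WT in all 9 libraries of the replicated models, while the lowest Rosa26-Lmo2+Sca1-Cre library reaches the WT range for Pmvk, Idi1, Fdps, Sqle, Lss and Cyp51.

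The later sterol enzymes Msmo1, Nsdhl, Hsd17b7, Sc5d and Dhcr7, which carry out the later demethylation, reduction and double bond steps, were called nowhere. Msmo1 averaged 19.9 ± 7.50 CPM in Rosa26-Lmo2+Sca1-Cre thymus, 18.9 ± 5.95 in Sca1-Lmo2 and 20.1 ± 13.1 in Rosa26-Lmo2+Mb1-Cre, against 13.6 ± 0.64 in WT. Hsd17b7, the least counted of them, averaged 3.61 ± 2.33, 4.65 ± 1.47 and 4.07 ± 0.59 CPM, against 2.49 ± 1.09 in WT. Nsdhl averaged 19.8 ± 3.36, 24.6 ± 9.18 and 14.3 ± 7.37 CPM, against 20.4 ± 11.4 in WT, where replicate 3 stood at 37.1 CPM. The last 2 enzymes of the route had negative log2 fold changes in all 3 comparisons, not past the test. Sc5d averaged 10.6 ± 4.59, 12.5 ± 2.75 and 10.4 ± 1.66 CPM, against 15.4 ± 2.55 in WT, with log2 fold changes of -0.54, -0.31 and -0.57. Dhcr7 averaged 33.3 ± 14.4, 34 ± 3.70 and 23.6 ± 10.1 CPM, against 37.1 ± 3.17 in WT, with log2 fold changes of -0.16, -0.12 and -0.65. The lowest adjusted p of the 5 genes was 0.128, for Dhcr7 in Rosa26-Lmo2+Mb1-Cre. Stard4, which carries cholesterol between membranes, averaged 19.4 ± 9.77, 29.5 ± 11.8 and 18.1 ± 5.07 CPM, against 19.3 ± 6.77 in WT, with adjusted p of 0.292 or more.

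How the counts were made over exons and introns is not given in the sources used here, and the order of levels between genes depends on the length they are divided by. Per kb of gene span, introns included, the order of mean levels in WT was led by Scd2 (12.9 CPM per kb), Elovl1 (5.12) and Fdps (4.61) and closed by Fads2 (0.124), Elovl6 (0.0729) and Acaca (0.0691), which spans 272 kb. Scd2 also led in Sca1-Lmo2, at 34.9 CPM per kb, ahead of Fasn at 12.7. In Rosa26-Lmo2+Mb1-Cre the leader was Fdps at 12.2, ahead of Fasn at 9.44 and Scd2 at 9.22, neighbours whose libraries overlap in CPM per kb. Per kb of exon (GENCODE, all transcripts of a gene merged), Scd2 again led in WT, at 31.2 CPM per kb, followed by Acly at 25.0 and Srebf1 at 18.7, each overlapping the next. Elovl1 then took place 8 and Fdps place 7. The order closed with Acaca (1.1), Lss (0.676) and Hsd17b7 (0.487). Scd2 led in Sca1-Lmo2 on this scale too (84.3 CPM per kb), while in Rosa26-Lmo2+Mb1-Cre the leader was Acly (28.0), ahead of Pmvk (25.9) and Fdps (24.3), again with overlapping libraries.

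Within groups, the libraries that were high over the sterol route were not always those high over the fatty acid route. Averaged over the 15 mevalonate and sterol enzymes, log2 level relative to the WT mean was 0.05 in Rosa26-Lmo2+Sca1-Cre replicate 1, against 0.87 and 0.86 in replicates 2 and 3, and replicate 1 was the lowest of the group in 11 of the 15. Over the 4 fatty acid synthesis genes the same libraries had 0.68, 0.69 and 0.23, so there replicate 3 was lowest. Rosa26-Lmo2+Mb1-Cre replicate 1 was higher than replicate 2 in 15 of 15 mevalonate and sterol enzymes (1.00 against 0.30), while replicate 2 was the higher in 4 of 4 fatty acid synthesis genes (1.14 against 0.53). Sca1-Lmo2 libraries had 0.84, 0.66, 0.71 and 0.62 over the sterol route and 1.15, 1.28, 0.73 and 0.56 over the fatty acid route. WT libraries stayed between -0.14 and 0.10 and between -0.19 and 0.16. These are descriptions of single libraries with no test.

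**Figure D5:**
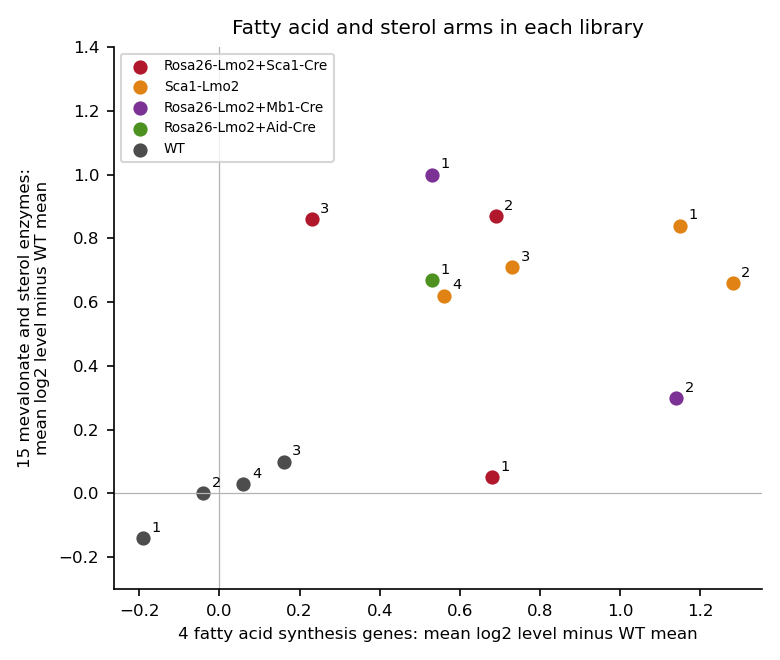
Mean log2(CPM + 0.5) minus the WT mean over the 4 fatty acid synthesis genes (x axis) and over the 15 mevalonate and sterol enzymes (y axis), with a point per library numbered by replicate and coloured by group. All 10 model libraries lie above all 4 WT libraries on the x axis, and Rosa26-Lmo2+Sca1-Cre replicate 1 lies at 0.05 on the y axis, within the WT range. The x value of Rosa26-Lmo2+Sca1-Cre replicate 3 rests on Acaca (1.106), with Fasn at 0.061, Acly at -0.225 and Acss2 at -0.002.

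Markers of other cells moved with some of these libraries. The summed level of 10 adipocyte markers, 3 of which passed the filter, was 168, 167 and 16.9 CPM in Rosa26-Lmo2+Sca1-Cre, 5.54, 3.84, 8.13 and 12.5 in Sca1-Lmo2 and 15.2 and 137 in Rosa26-Lmo2+Mb1-Cre, against 21.4, 13.1, 9.28 and 9.84 in WT. Lep was at 0 in all libraries of Sca1-Lmo2, Rosa26-Lmo2+Mb1-Cre and WT, and Adrb3 in those of Sca1-Lmo2 and Rosa26-Lmo2+Mb1-Cre. The libraries with the high sums, Rosa26-Lmo2+Sca1-Cre replicates 1 and 2 and Rosa26-Lmo2+Mb1-Cre replicate 2, were the higher ones of their groups over the fatty acid synthesis genes. Within Sca1-Lmo2 and within WT the order was the reverse. Their mean log2 levels over those genes were 1.15, 1.28, 0.73 and 0.56 in Sca1-Lmo2 and -0.19, -0.04, 0.16 and 0.06 in WT. Of the 3 adipocyte markers tested, 2, 0 and 1 passed the test as higher in the 3 models and 0 as lower. In Rosa26-Lmo2+Sca1-Cre these were Lpl (100 ± 79.5 CPM, against 10.4 ± 5.61 in WT) and Fabp4 (12.3 ± 6.92, against 1.43 ± 0.309). The sums of both groups thus rest mostly on Lpl. Macrophage markers summed to 342 to 708 CPM, 74.4 to 199 CPM and 330 to 1450 CPM in the 3 models, against 128 to 299 CPM in WT, with the highest value in Rosa26-Lmo2+Mb1-Cre replicate 2. Of the 10 macrophage markers 3, 0 and 8 were higher in these models and 0 were lower. The part of adipocytes and macrophages in the members' values was not tested.

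The other marker lists are given by their summed CPM and their calls against WT in the 3 models, in the same order. Erythroid markers summed to 1020 to 6970, 974 to 2480 and 1780 to 2310, against 283 to 2420 in WT, and 1 of 6 tested was higher in each model. Thymic epithelium summed to 37.8 to 129, 32 to 48.8 and 33.2 to 42.8, against 72.5 to 93.7 in WT, and its master regulator Foxn1 was at 0 in all Sca1-Lmo2 libraries. Of its 8 tested markers 3, 6 and 1 were lower and 0 were higher. B-cell markers summed to 16.8 to 52.9, 16.4 to 40.9 and 8.48 to 13, against 53.1 to 98.7 in WT, with 1, 2 and 5 of 8 lower and 0 higher. Stroma and endothelium summed to 114 to 157, 125 to 196 and 88.5 to 94.9, against 117 to 126 in WT, but the sums include a high level of Pecam1, an endothelial adhesion molecule, which averaged 68.4, 129 and 71.7 CPM, against 115 in WT. Pecam1 fell in the Rosa26-Lmo2+Sca1-Cre model (log2 fold change -0.75, adjusted p = 0.00792) and in Rosa26-Lmo2+Mb1-Cre (-0.68, adjusted p = 0.011). Of the other 5 tested, all markers of fibroblasts or matrix, 5, 2 and 3 were higher and 0 were lower in the 3 models, and the median log2 fold change of all 6 was 3.52, 0.28 and 1.96. The collagen gene Col1a1 rose in each model, to 7.75, 1.94 and 3.67 CPM, against 0.644 in WT (log2 fold change 3.58, 1.58 and 2.5, adjusted p = 0.00229, 0.0288 and 0.00546). The part of these cells in the members' values was not tested.

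Between the models few members passed the test, which does not show that their levels were alike. Of all genes, 9.89% were called when Sca1-Lmo2 was set against Rosa26-Lmo2+Sca1-Cre, 0.211% when Rosa26-Lmo2+Mb1-Cre was set against it, and 10.5% between Rosa26-Lmo2+Mb1-Cre and Sca1-Lmo2. In the same order, the median log2 fold change of the members was 0.36, 0.03 and -0.36, beside -0.0055, -0.099 and -0.046 over all genes. The edgeR test called 0 of 32 members in the first, with 5 at an unadjusted p under 0.05, 4 by DESeq2 and 0 by limma-voom. It called 0 in the second, with 4 at an unadjusted p under 0.05, 2 by DESeq2 and 0 by limma-voom. In the third it called 2: Pmvk was higher in Rosa26-Lmo2+Mb1-Cre than in Sca1-Lmo2 by 1.18 (SE 0.315, adjusted p = 0.0382), with both libraries above all 4, and Scd2 was lower (-1.92, SE 0.513, adjusted p = 0.0382), with both below all 4. Neither call was kept in every fit that left out 1 library. Pmvk kept it without Sca1-Lmo2 replicate 4 alone (adjusted p = 0.037, others 0.0519 to 0.216), and Scd2 without Sca1-Lmo2 replicate 3 or 4 (adjusted p = 0.0403 and 0.0405, others 0.0673 to 0.251). Close to the threshold were Fads1 (0.97, adjusted p = 0.0537) and Fads2 (1.96, adjusted p = 0.0596) in Sca1-Lmo2 against Rosa26-Lmo2+Sca1-Cre, Insig2 between Rosa26-Lmo2+Mb1-Cre and the same group (-1.17, adjusted p = 0.0535) and Scd1 in Rosa26-Lmo2+Mb1-Cre against Sca1-Lmo2 (-2.91, adjusted p = 0.051).

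The single Rosa26-Lmo2+Aid-Cre library entered the fit but no test. It lay above the highest WT library in 18 of the 32 members (56.2%), while 33.3% of all 17087 genes did so, and below the lowest WT library in 6 (18.8%), while 35.9% of all genes did so. It had at least 2 times the highest WT level in 4 members (12.5%), beside 8.2% of all genes. Among the genes above, it had 41.0 CPM of Acaca, 132 of Fasn, 13.5 of Mvk, 39.7 of Fdft1 and 25.9 of Sqle, each above all WT libraries. Its Insig2 level of 61.5 CPM was the highest of the 14 libraries. With no second library, there is no spread to set these values against.

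Other genes of the same metabolism, from lists that hold no member, were counted in the same comparisons with WT. Beside these small lists, 16.5%, 12.1% and 19.7% of all genes were higher in the 3 models and 10.4%, 10.2% and 15.4% lower. Of 11 further genes of sterol synthesis and uptake, 2 were higher and 1 lower in Rosa26-Lmo2+Sca1-Cre, 2 and 2 in Sca1-Lmo2 and 2 and 1 in Rosa26-Lmo2+Mb1-Cre. The higher genes were 18.2% of that list in each model. Tmem97, a sterol-regulated protein of the endoplasmic reticulum, averaged 23.4 ± 8.03, 33.7 ± 4.80 and 80.2 ± 50.2 CPM in the 3 models, against 9.00 ± 2.67 in WT. Soat1, which esterifies cholesterol for storage, averaged 28.9 ± 11.9, 20.6 ± 6.55 and 26.1 ± 0.571 CPM, against 106 ± 22.3 in WT. Tmem97 rose (log2 fold changes 1.38, 1.90 and 3.15) and Soat1 fell (-1.88, -2.36 and -2.02) in each comparison. Of 8 genes of sterol export and LXR control, 1 was lower in each model and 1 higher in Rosa26-Lmo2+Mb1-Cre. There Mylip, which marks lipoprotein receptors for degradation, fell by 1.98 and Apoe, a lipoprotein component made by macrophages, rose by 2.75 with 887 ± 850 CPM over its 2 libraries, against 132 ± 68.5 in WT. In Sca1-Lmo2 the lower gene was Nr1h3, which encodes the receptor LXR-alpha (2.89 ± 1.14 CPM, against 9.81 ± 3.51 in WT). Of the 2 SREBP proteases 0 were called by edgeR in any comparison with WT and 0 had an unadjusted p under 0.05.

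Of 9 further genes of fatty acid synthesis and esterification, 2, 2 and 1 were higher in the 3 models, 1 was lower in Sca1-Lmo2 and 2 in Rosa26-Lmo2+Mb1-Cre. Slc25a1, the mitochondrial citrate carrier, rose in Rosa26-Lmo2+Sca1-Cre (21.9 ± 4.28 CPM, against 12.3 ± 1.54 in WT) and Sca1-Lmo2 (24.7 ± 5.71 CPM). Acacb, the carboxylase tied to mitochondria, rose in all 3, at 3.98 ± 1.66, 6.39 ± 6.12 and 4.33 ± 0.375 CPM, against 0.96 ± 0.0896 in WT. Of 9 genes of the isoprenoid branch 2, 1 and 4 were higher. Among them Fntb, the farnesyltransferase subunit, rose by 0.91 in Rosa26-Lmo2+Sca1-Cre thymus and by 1.07 in Rosa26-Lmo2+Mb1-Cre thymus. Of 14 genes of mitochondrial fatty acid oxidation 2, 1 and 3 were higher and 1 was lower in Sca1-Lmo2, with Hadh up by 0.49 in Rosa26-Lmo2+Sca1-Cre and 0.70 in Sca1-Lmo2 and Eci1 down by a log2 fold change of -2.80 in Sca1-Lmo2. Of 12 cell cycle genes 2 were higher in each of the last 2 models, Mcm2 and Mcm5 in Sca1-Lmo2 (1.14 and 1.12) and Tyms and Mcm5 in Rosa26-Lmo2+Mb1-Cre (1.65 and 0.86).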

How the data were processed

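RNA-seq of mouse thymus was analysed in 14 libraries. Total RNA was made into non-stranded TruSeq libraries and sequenced as read pairs on an Illumina HiSeq. The authors aligned reads with TopHat2 2.1.0 to mm10 (GRCm38) and deposited raw counts per gene; the counting options are not given in the sources used here. Of 46948 lines 46946 were kept after repeated lines were removed, and the 17087 genes that reached 1 CPM in 3 or more libraries were tested. Counts were fitted with edgeR 4.0.16 (R 4.3.3), with TMM scaling, the 5 group means and the quasi-likelihood test, two-sided, with Benjamini-Hochberg adjustment over all tested genes and a threshold of 0.05. SE is the log2 fold change divided by the square root of F. The Rosa26-Lmo2+Aid-Cre library entered the fit only. The script was tested on simulated data. DESeq2 1.42.0, limma-voom (limma 3.58.1), other scalings and filters, a replicate block, a gene span correction and leaving out single libraries were tried as alternatives. Where a fit leaves Rosa26-Lmo2+Mb1-Cre with 1 library, that library is assumed to vary like the other groups.

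Members called in any comparison with WT are given with every library, the others by mean and SD or range. From each companion list up to 2 called genes with the smallest adjusted p per comparison could be named, and markers are given as summed CPM. Members and lists were chosen with earlier results of these data known. Gene spans are those of the deposited table (mm10). 16 members overlap another gene, 8 of them one with at least 0.1 times their counts, and without strand such counts are uncertain. Depth (42985130 to 47667663 counts) gave members 22 to 28631 counts per library.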

Additional observations from a re-analysis of the deposited data

Results flagged for a closer look

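Over 64 groups of 4 libraries (32 members in Sca1-Lmo2 and in WT), 2 had a library far from the other 3. Chance gives about 1 in 20, so 2 of 64 is not more than chance gives. Idi1 stood at 19.1 CPM in WT replicate 1, against 26.4 to 27.5 in the other WT libraries. Insig2 stood at 37.8 CPM in Sca1-Lmo2 replicate 1, against 27.0 to 28.6 in the others of that group.

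The edgeR contrast of Rosa26-Lmo2+Mb1-Cre with Sca1-Lmo2 called 2 members. Pmvk differed by 1.18 and Scd2 by -1.92 on the log2 scale (adjusted p = 0.0382 each). Comparing the effects against WT is the same test, since WT cancels out. These 2 are 6.25% of the members, beside 10.5% of all genes. Both calls were lost with only these 2 groups in the fit and under the replicate block. They were also lost when the Trbv5-rich Sca1-Lmo2 pair was merged. Neither held through all removals of a single Sca1-Lmo2 library.

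The Rosa26-Lmo2+Aid-Cre library, which is in no test, had at least 2 times the highest WT level in 4 of the 32 members (12.5%), while 8.2% of all genes reached that level, 1401 of 17087. Cyp51 stood at 34.1 CPM, against 14.1 in the highest WT library (2.42 times). Elovl5 stood at 155 CPM, against 73.6 (2.11 times). Hsd17b7 stood at 9.96 CPM, against 3.59 (2.77 times), and Insig1 at 50.8 CPM, against 22.5 (2.26 times). No second library of this genotype gives a spread.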

How the results depend on the processing

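No member call reversed under any alternative run. Of 472 values of called members under the alternatives, 328 kept their side of the threshold and 144 lost it, 80 of them among 213 fits that left out 1 library; DESeq2 and DESeq2 size factors in edgeR kept 31 of 31 each. Members higher against WT, 9 in each model, numbered 4 by limma-voom and 1 with library totals for Rosa26-Lmo2+Sca1-Cre, 16 for Sca1-Lmo2 when only the 2 groups were fitted, and 4 with library totals in Rosa26-Lmo2+Mb1-Cre. Members lower in Rosa26-Lmo2+Mb1-Cre, 2, numbered 0 by limma-voom, 1 with no filter on low counts and 1 with the gene span correction. When Sca1-Lmo2 was set against Rosa26-Lmo2+Sca1-Cre, 0 calls became 4 by DESeq2, 2 with no filter, 3 with library totals and 1 with the span correction; when Rosa26-Lmo2+Mb1-Cre was set against it, 0 became 2 by DESeq2 and 1 with the span correction; between Rosa26-Lmo2+Mb1-Cre and Sca1-Lmo2, 2 became 5 by DESeq2, 0 with only the 2 groups and 0 with Sca1-Lmo2 replicates 1 and 3 merged, an alternative chosen after seeing the data. Leaving out 1 library gave 3 to 9, 5 to 9 and 5 to 8 members higher and 0 to 1, 0 and 0 to 1 lower against WT in the 3 models, taken in that same order, and 0 to 2, 0 to 1 and 0 to 5 calls in the 3 pairs of models. The cause of these shifts was not tested. Replicate numbers are shared between groups, and same-numbered libraries had deviations correlated at -0.399 to 0.17, over 0.1 in 4 of 16 pairs. These values show no clear pairing by number. They cannot exclude a pairing or a shared batch, since libraries of a model differ strongly from each other. With the replicate block 2, 4 and 4 members were higher, 0 were lower in Rosa26-Lmo2+Mb1-Cre, and 0 were called between Rosa26-Lmo2+Mb1-Cre and Sca1-Lmo2. Over all genes, the calls of Rosa26-Lmo2+Mb1-Cre against the Rosa26-Lmo2+Sca1-Cre group, 36, were 1333 by DESeq2 and 1 by limma-voom.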
